A study of Mus musculus with 9 samples.

Results

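The genes described here make up the synaptic vesicle and release machinery, chosen by gene symbol: the synaptotagmins, syntaxins, VAMPs, synapsins, Rab3 proteins, complexins, STXBP proteins, SV2 proteins, RIM proteins, UNC13 proteins, *Snap25*, *Nsf*, *Bsn*, *Pclo*, *Syp* and the vesicular transporters *Slc17a6*, *Slc17a7*, *Slc17a8* and *Slc32a1*. Of 55401 genes in the count table, 75 had such a symbol, and 67 of these had a summed count of 90 or more over all embryos and are the members. Levels were read as RNA in bulk forebrain of female mouse embryos at E16 to E17. The WT group held 5 *Npas3*+/+ embryos and the HET group held 4 littermate *Npas3*+/- embryos, which carry a constitutive heterozygous deletion of *Npas3*, a bHLH-PAS transcription factor gene, in all cells. Both groups were on the C57BL/6J background and neither received a treatment. The comparison asks which transcripts of the release machinery differ when 1 copy of *Npas3* is deleted.

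Release of neurotransmitter begins when a vesicle SNARE (a VAMP) pairs with target-membrane SNAREs (a syntaxin and SNAP-25), while the UNC13 proteins prepare the complex and NSF takes it apart after fusion. Synaptotagmins sense the calcium that triggers fusion, complexins hold and then assist the assembled SNAREs, and RIM, Bassoon and Piccolo form the active zone where vesicles dock. In late embryonic forebrain most neurons are young and few synapses have formed, so many of these genes are transcribed before the terminals that use them are complete.

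Each embryo gave 42640218 to 62830060 counts. *Npas3* itself stood at 40.8, 35.4, 29.7, 38.3 and 37.0 CPM (counts per 1000000 counts, scaled by TMM) in WT5, WT15, WT16, WT41 and WT43, and at 27.9, 28.2, 34.1 and 27.8 CPM in HET5, HET6, HET7 and HET24. The groups overlapped through WT16 and HET7, and the difference of -0.30 ± 0.10 (log2, SE) had an adjusted p of 0.877 in edgeR's quasi-likelihood test. Although the labels give the cell type as astrocytes, the tissue is whole forebrain and the 8 postmitotic neuron markers summed to 5603 to 6798 CPM. The 8 astrocyte markers summed to 662 to 772 CPM, from *Slc1a3* at 247 to 319 CPM down to *S100b* at 0.0883 to 0.326 CPM. *Ttr*, made by choroid plexus epithelium, was at 2127 to 2631 CPM in WT15, WT16 and WT41 and at 467 CPM in HET24, against 0.770 to 11.7 CPM in the other 5 embryos.

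All 67 members passed the filter on low counts, and none was called higher or lower in HET by edgeR's quasi-likelihood test at a Benjamini-Hochberg adjusted p under 0.05. Over all 17818 genes tested, that threshold was passed upward by 0.0281% and downward by 0.112%. One member, *Stxbp2*, had an unadjusted p under 0.05 in edgeR and was lower in HET. Such a p was reached upward by 2.32% and downward by 3.09% of all genes. DESeq2 called 1 member, *Stxbp2*, where it called 0.393% of 21632 genes, and limma-voom called 0. *Stxbp2* was also the 1 member whose WT and HET values did not overlap, where 0.786% of all genes were separated upward and 1.07% downward. The other 66 members overlapped between the groups.

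In direction, 45 members were above 0 and 22 below 0 on the log2 fold change scale (HET against WT), with a median of 0.05 beside -0.0046 over all genes. Of all genes, 48.5% were above 0. The count of 45 varied with the embryos used. Without HET7 it was 36 higher and 31 lower with a median of 0.0063, and without HET5 it was 50 higher and 17 lower. Without HET7 and WT16, left out together after the values were seen, it was 30 higher and 37 lower with a median of -0.0052. These are the highest HET and the lowest WT embryo in mean member level, and leaving them out tends to lower the count whatever its source. HET5 is the lowest HET embryo in that level, and leaving it out tends to raise the count in the same way. For 51 of the 67 members the 95% interval of the difference lay within 1.5-fold of no change in either direction, or 76.1% beside 70.3% of all genes. In bulk tissue, a smaller number of cells of a type and less RNA in each cell cannot be told apart.

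**Figure D1:**
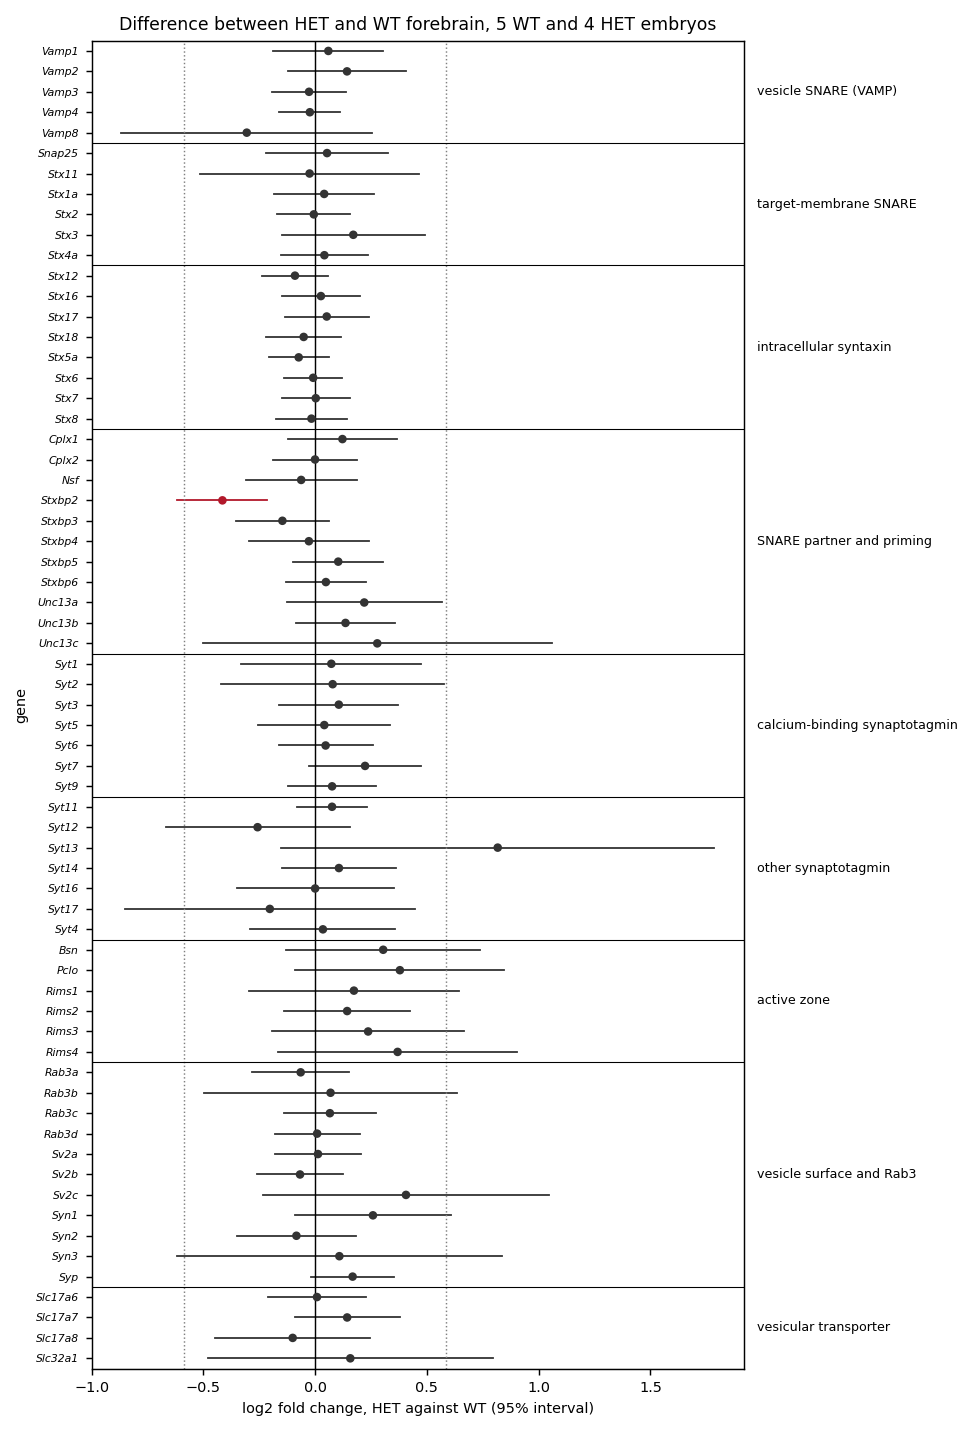
Log2 fold change in HET against WT (horizontal axis) with its 95% interval for 65 of the 67 genes, ordered by role; the dotted lines mark 1.5-fold in either direction. The interval of *Stxbp2*, in red, is the 1 that does not cross 0.

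*Stxbp2* encodes MUNC18-2, a syntaxin-binding protein best known from regulated secretion in epithelial and blood cells. The stretch before the RefSeq start of *Stxbp2* is shown because this member stood apart in the comparison. That of *Stxbp3* is shown because it encodes another MUNC18 protein, and those of *Bsn* and *Pclo* because their values set WT16 apart. Capitals mark CANNTG, the E-box that bHLH proteins bind as a family, which reads the same on both strands and includes CACGTG. Sequences are from RefSeq on GRCm38.p6, printed 5′ to 3′ on the gene's strand. The GENCODE M21 model of *Stxbp2* (chr8:3630955-3643644, plus strand) begins inside the 250 bases upstream of the RefSeq start, so each of its 4 E-boxes is given alone with the bases around it, starting 126, 77, 56 and 14 bases before that start:
Stxbp2 site 1, chr8:3630971-3631000, plus strand: ctgaagtggagcCAAGTGgtgctgctggga
Stxbp2 site 2, chr8:3631020-3631049, plus strand: agagagagagaaCAGATGgaccgggaggcg
Stxbp2 site 3, chr8:3631041-3631070, plus strand: cgggaggcggacCAGGTGcgcagagggcgt
Stxbp2 site 4, chr8:3631083-3631108, plus strand: cggggtggggccCACGTGgatgacgc
Stxbp3, chr3:108840527-108840752, minus strand: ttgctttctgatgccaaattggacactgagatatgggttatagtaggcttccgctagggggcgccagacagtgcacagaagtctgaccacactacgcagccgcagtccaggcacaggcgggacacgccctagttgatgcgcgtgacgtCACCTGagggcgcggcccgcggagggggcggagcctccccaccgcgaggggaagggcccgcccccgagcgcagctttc
Bsn, chr9:108190385-108190633, minus strand: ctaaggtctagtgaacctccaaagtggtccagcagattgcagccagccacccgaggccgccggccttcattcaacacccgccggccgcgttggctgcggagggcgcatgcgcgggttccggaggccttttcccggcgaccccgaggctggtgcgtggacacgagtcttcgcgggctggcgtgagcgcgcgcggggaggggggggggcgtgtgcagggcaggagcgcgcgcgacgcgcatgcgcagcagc
Pclo, chr5:14514668-14514917, plus strand: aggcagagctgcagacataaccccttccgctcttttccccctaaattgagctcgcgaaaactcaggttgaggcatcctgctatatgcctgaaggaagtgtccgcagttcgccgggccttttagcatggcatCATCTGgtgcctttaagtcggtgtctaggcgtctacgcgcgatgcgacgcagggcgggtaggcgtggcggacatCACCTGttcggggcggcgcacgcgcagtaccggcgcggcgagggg

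The window of 250 bases upstream of the RefSeq start held 4 matches to CANNTG in *Stxbp2*, 2 in *Pclo*, 1 in *Stxbp3* and 0 in *Bsn*. The 4 in *Stxbp2* all lie inside its GENCODE M21 gene model. Promoter entries matched 53 of the 67 members, with 69 promoters in all. CANNTG was in 50 of these 69 (72.5%) and in 66.2% of all 32851 promoters. CACGTG was in 9 promoters (13.0%) of 8 genes, which were *Nsf*, *Stx6*, *Stxbp2*, *Sv2b*, *Syt14*, *Syt6*, *Unc13b* and *Vamp4*, and it was in 6.02% of all promoters. The cAMP response element TGACGTCA was in 2 (2.90%), of *Stxbp3* and *Syn1*, and in 1.55% of all. These are matches of letters within the windows, and binding was not measured.

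Among the SNARE partners and priming factors, *Stxbp2* RNA was at 20.6, 23.0, 19.8, 22.7 and 18.5 CPM in WT5, WT15, WT16, WT41 and WT43. In HET5, HET6, HET7 and HET24 it was at 17.0, 14.3, 15.05 and 16.5 CPM. Every HET embryo lay below every WT embryo, and the nearest pair was HET5 under WT43. The WT mean was 20.9 ± 1.92 CPM (SD, n = 5) and the HET mean 15.7 ± 1.23 CPM (SD, n = 4), a log2 fold change of -0.41 ± 0.09 (SE) with a 95% interval of -0.62 to -0.21. The adjusted p was 0.249 in edgeR's quasi-likelihood test and 0.0063 in DESeq2. Leaving out each embryo in turn gave log2 fold changes of -0.45 to -0.37, and the adjusted p in edgeR ranged from 0.201 without WT43 to 0.920 without HET6. *Ttr* was higher in 3 WT embryos, and with a choroid plexus score as covariate the *Stxbp2* log2 fold change was -0.36 (edgeR, adjusted p = 0.434). In the 5 embryos with *Ttr* under 100 CPM, which are WT5, WT43, HET5, HET6 and HET7, it was -0.34 (edgeR, adjusted p = 0.999).

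*Stxbp3*, which encodes the broadly expressed MUNC18-3, was at 11.4, 12.5, 12.4, 12.5 and 11.3 CPM in WT and at 11.7, 11.97, 10.003 and 9.81 CPM in HET. HET7 and HET24 were the lowest of the 9 embryos and HET5 and HET6 lay within the WT range, and the log2 fold change was -0.15 ± 0.09 (SE). *Stxbp5*, whose product tomosyn competes with VAMP for the syntaxin complex, was at 34.8 to 43.3 CPM in WT and 37.7 to 48.1 CPM in HET.

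The priming factor *Unc13a*, which makes docked vesicles ready to fuse, was at 176, 175, 108, 142 and 154 CPM in WT5, WT15, WT16, WT41 and WT43 and at 141, 157, 184 and 220 CPM in HET5, HET6, HET7 and HET24. WT16 was the lowest of the 9, and HET7 and HET24 were above all WT embryos, with a log2 fold change of 0.22 ± 0.16 (SE). *Nsf*, the ATPase that disassembles used SNARE complexes, was at 62.3 to 81.5 CPM in WT and 62.0 to 88.8 CPM in HET, with HET7 highest and HET5 lowest. Of the complexins, *Cplx2* was at 200 to 238 CPM in WT and 205 to 259 CPM in HET, with a log2 fold change of -0.00055 ± 0.09 (SE). *Cplx1* was at 46.0 to 60.7 CPM in WT and 49.1 to 71.6 CPM in HET, with a log2 fold change of 0.12 ± 0.11 (SE). Over the 12 genes of this role, 7 were above 0 and 5 below 0, and *Unc13c* had the widest interval, from -0.50 to 1.06, at 0.606 to 2.09 CPM.

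**Figure D2:**
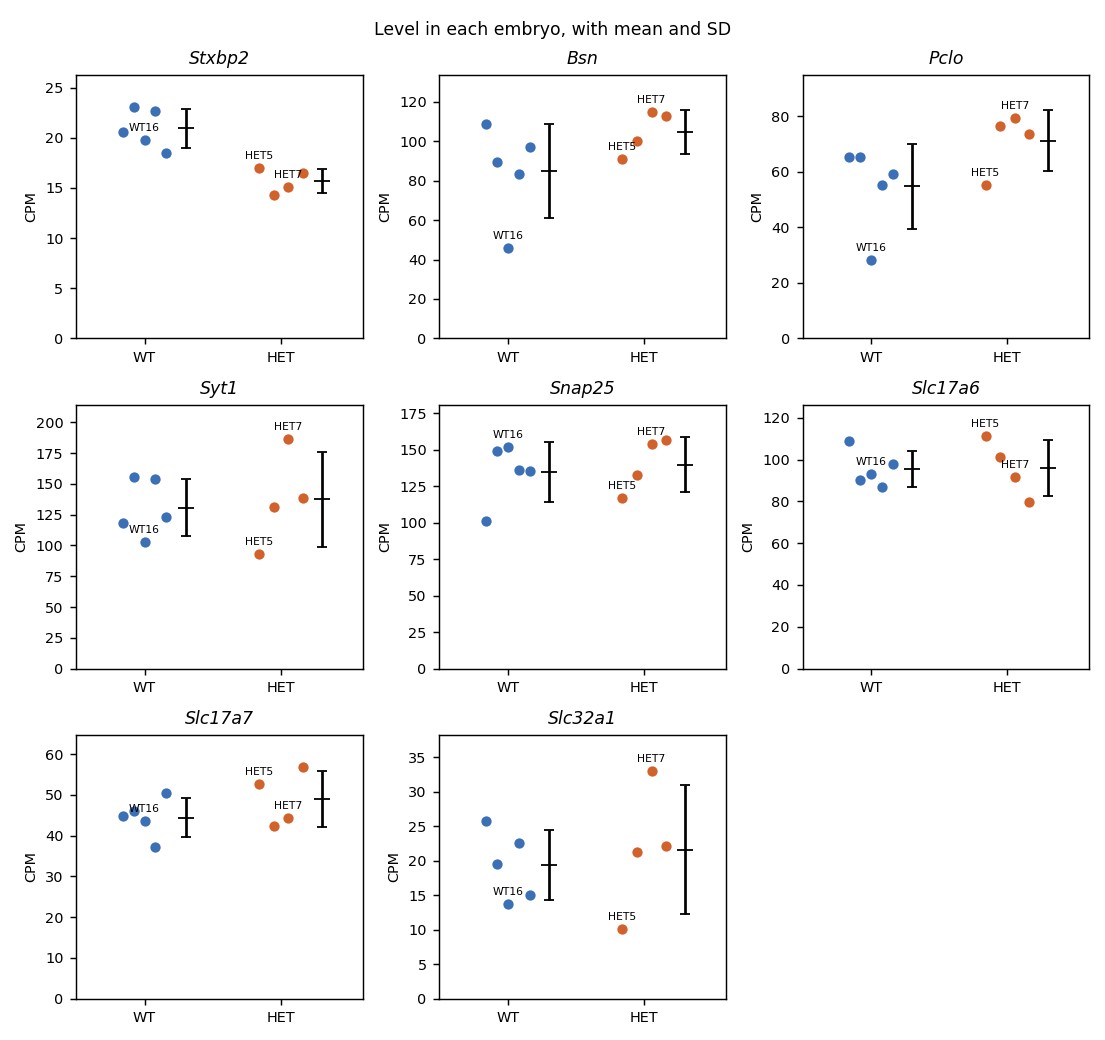
CPM of 8 genes in each of the 5 WT and 4 HET embryos, with the group mean and SD beside the points and each vertical axis starting at 0. *Stxbp2* is the gene of the 8 whose groups do not overlap, and WT16 lies far below the other embryos in *Bsn* and *Pclo*.

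The active zone genes were the role with the largest median. All 6 had a log2 fold change above 0, from 0.14 to 0.38 with a median of 0.27, and none had an unadjusted p under 0.05 in edgeR. *Pclo*, encoding the scaffold Piccolo, was at 65.5, 65.4, 28.2, 55.3 and 59.2 CPM in WT5, WT15, WT16, WT41 and WT43 and at 55.1, 76.4, 79.5 and 73.7 CPM in HET5, HET6, HET7 and HET24. WT16 was far below the other 8 embryos, HET5 was just under the lowest of the other WT embryos, and the remaining 3 HET embryos were above all WT. *Bsn*, encoding its partner Bassoon, was at 109, 89.4, 45.9, 83.5 and 97.0 CPM in WT and at 91.2, 100.1, 115 and 113 CPM in HET. WT16 was again the lowest, and HET5 and HET6 lay among the other WT embryos. The log2 fold change was 0.38 ± 0.21 (SE) for *Pclo* and 0.30 ± 0.20 for *Bsn*, and edgeR's quasi-likelihood test gave both an adjusted p of 0.911.

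The RIM genes encode proteins that tether vesicles and calcium channels at the active zone. *Rims1* was at 6.71, 9.001, 4.55, 8.35 and 7.09 CPM in the WT embryos and at 6.04, 7.87, 11.04 and 7.28 CPM in the HET embryos, with WT16 lowest and HET7 highest. The log2 fold changes were 0.17 ± 0.21 (SE) for *Rims1*, 0.14 ± 0.13 for *Rims2*, 0.24 ± 0.19 for *Rims3* and 0.37 ± 0.24 for *Rims4*. WT16 had the lowest level of the 9 embryos in 5 of the 6 active zone genes and HET7 the highest in all 6. Without WT16 the median was 0.14, without HET7 it was 0.12, and without both it was 0.04 with 3 of the 6 genes above 0. Leaving out both was chosen after the values were seen. Removing the lowest WT and the highest HET embryo lowers the median whatever its source, so no conclusion is drawn from it. Without HET5, which was the lowest of the 9 in *Rims4*, the median was 0.38. Leaving out a low HET embryo likewise raises the median whatever its source, so no conclusion is drawn from that either.

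The level in WT16 varied with the length of the gene. Over the members, the difference between WT16 and the mean of the other WT embryos in log2 CPM had a Spearman correlation of -0.49 with exonic length, and over 17804 genes with a length it was -0.36. These points share 1 library and are given as a description. Of the 6 longest members, *Pclo*, *Bsn*, *Unc13a*, *Unc13b* and *Stxbp5* had differences of -1.11, -1.04, -0.58, -0.44 and -0.23 on the log2 CPM scale in WT16, and *Unc13b* is the longest. *Syn3*, the shortest of these 6, had a difference of -1.91, and it shares 14.1% of its exonic bases with *Timp3* on the other strand. The part that transcript length, and with it RNA quality or library preparation, has in the low values of WT16 was not tested.

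**Figure D3:**
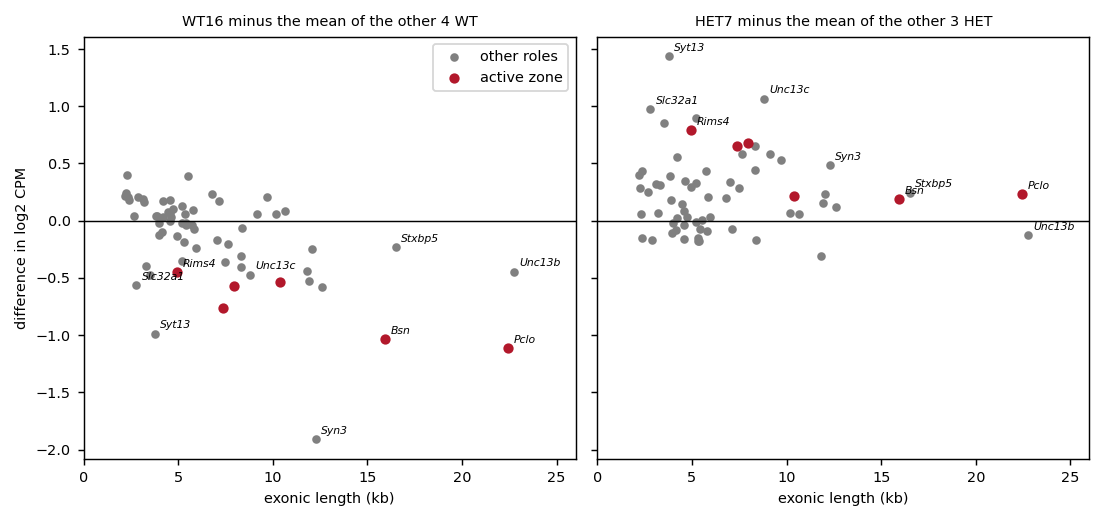
Difference in log2 CPM between 1 embryo and the mean of the others in its group (vertical axis) against exonic length in kb (horizontal axis) for 65 of the 67 genes, for WT16 on the left and HET7 on the right; active zone genes are red. In WT16 the longer genes lie lower (Spearman correlation -0.49 over all members), and in HET7 no such slope is seen (-0.0079).

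HET7 was high in many members, though not in every role. It had the highest value of the 9 embryos in 29 of the 67 members, where it had the highest in 15.5% of all genes. It lay above the mean of the other HET embryos in 50 of 67 members, beside 50.1% of all genes. The median difference was 0.22 on the log2 CPM scale over the members and 0.00063 over all genes. Among the intracellular syntaxins and among the vesicular transporters the median was -0.02. HET5 was the lowest of the 9 in 17 members, WT16 in 18 and WT5 in 14, where they were lowest in 11.8%, 20.9% and 14.8% of all genes. The mean log2 CPM over the members averaged 5.13 ± 0.10 (SD, n = 5) among WT and 5.19 ± 0.16 (SD, n = 4) among HET embryos, from 4.99 in HET5 to 5.38 in HET7. The summed postmitotic neuron markers were likewise highest in HET7, at 6798 CPM, while WT16 had 5603 and HET5 5677 CPM. Among them, *Tubb3* was highest in WT16, at 1885 CPM, and *Elavl4* lowest in HET7, at 192 CPM. The summed glutamatergic cortical neuron markers were highest in WT16, at 2252 CPM, beside 1815 CPM in HET7. The summed neural progenitor markers were lowest in HET7, at 1979 CPM beside 2095 to 2978 CPM in the other embryos. Of these, *Pax6*, *Sox2*, *Eomes* and *Mki67* were not lowest in HET7. The part of cell composition in the member values was not tested.

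**Figure D4:**
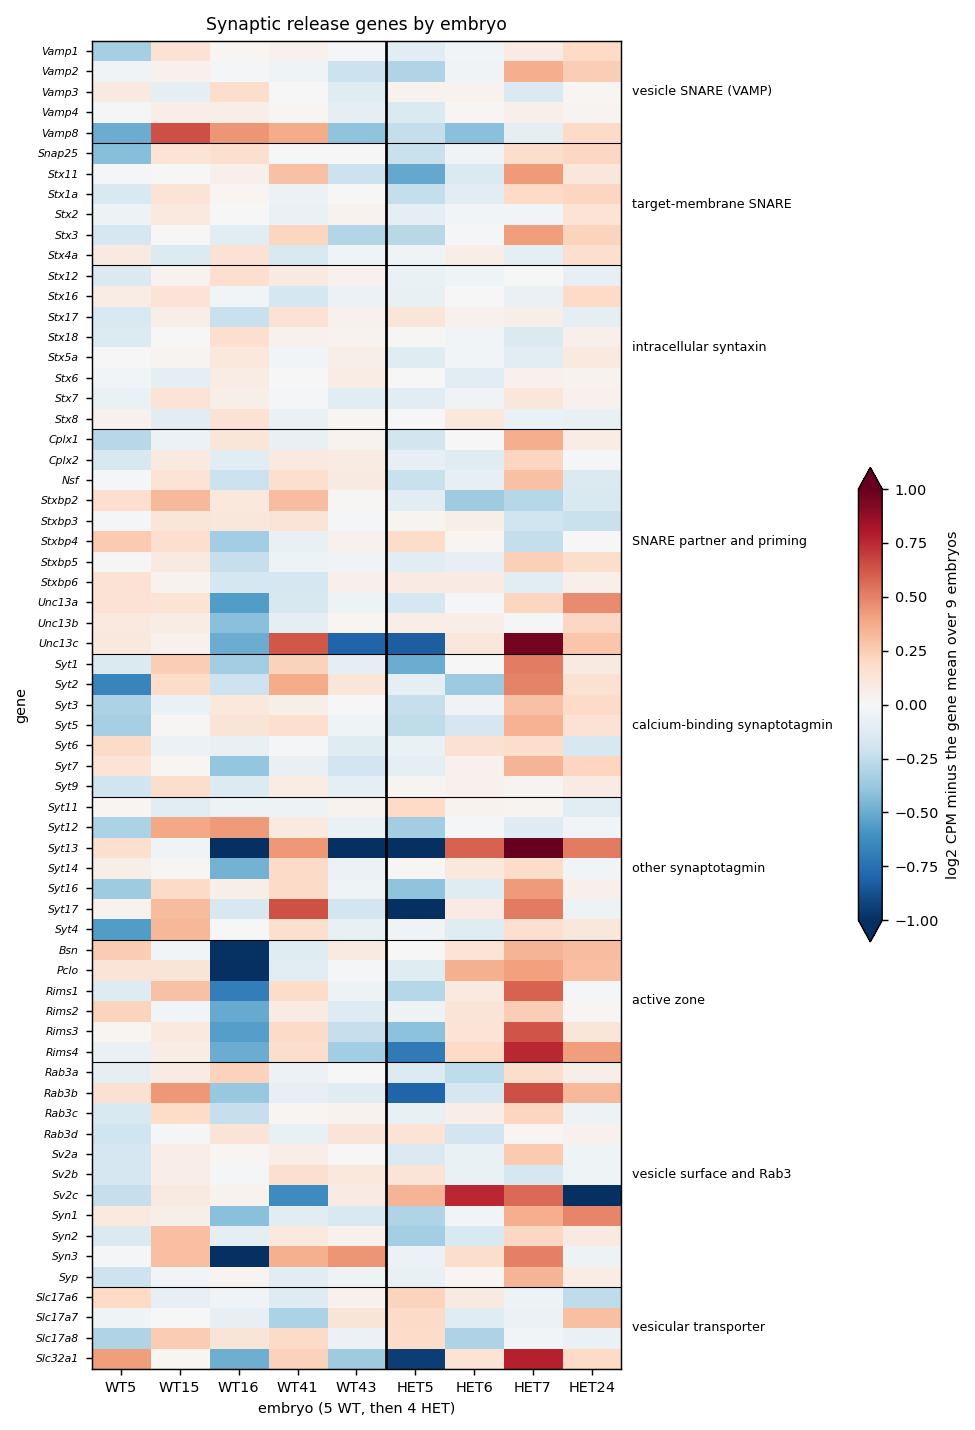
Log2 CPM of 65 of the 67 genes (rows, by role) in each embryo (columns) as the difference from the gene's mean over the 9 embryos; colours are full at 1 in either direction, and a few values lie beyond. The HET7 column is red in most rows outside the intracellular syntaxins, and WT16 is blue in the active zone rows.

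The calcium-binding synaptotagmins were all above 0, 7 of 7, with a median log2 fold change of 0.08 and a largest value of 0.22. Of all genes, 48.5% were above 0. The 7 genes were read in the same embryos, and HET7 was the highest of the 9 embryos in 5 of them. *Syt1*, the fast calcium sensor of most forebrain synapses, was at 118, 155, 103, 154 and 122.9 CPM in WT5, WT15, WT16, WT41 and WT43 and at 92.8, 131, 187 and 139 CPM in HET5, HET6, HET7 and HET24. The lowest and the highest of the 9 were both HET embryos, so the HET range enclosed the WT range, and the log2 fold change was 0.07 ± 0.18 (SE). It was -0.11 without HET7. *Syt7*, a slow, high-affinity sensor, was at 101, 92.5, 69.8, 86.8 and 79.9 CPM in WT and at 85.7, 93.9, 116 and 106 CPM in HET. HET7 and HET24 were above all WT embryos, and the log2 fold change of 0.22 ± 0.11 (SE) had an adjusted p of 0.911 in edgeR's quasi-likelihood test. *Syt2* was rare here, at 1.95 to 4.34 CPM, and *Syt9* had 15.7 to 20.4 CPM in WT and 18.3 to 19.1 CPM in HET.

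Of the other synaptotagmins, most of which do not bind calcium in the way of SYT1, *Syt11* and *Syt4* were abundant. *Syt11* was at 462 to 511 CPM in WT and 464 to 573 CPM in HET, with a log2 fold change of 0.08 ± 0.07 (SE) and an interval of -0.08 to 0.23. *Syt13* had the largest log2 fold change of all members, 0.82 ± 0.44 (SE), with an interval of -0.15 to 1.79. It was at 12.2, 10.6, 5.07, 14.7 and 5.41 CPM in WT and at 5.41, 16.4, 30.3 and 15.6 CPM in HET. WT16, WT43 and HET5 shared a low level and HET7 was high, so that the groups overlapped, and without HET7 the log2 fold change was 0.38. *Syt12* was near the lower end of the members, at 0.818 to 1.37 CPM in WT and 0.801 to 1.001 CPM in HET, with a log2 fold change of -0.26 ± 0.19 (SE). On the other strand, 17.2% of its exonic bases and 14.5% of those of *Syt4* lie in other genes, and the strand setting of the counting is not given in the sources used here.

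The 3 embryos with low *Syt13*, WT16, WT43 and HET5, were also the 3 lowest in 6 of 7 GABAergic neuron markers, with *Lhx6*, at 39.0 CPM in WT5 and 54.2 CPM in WT43, the exception. *Slc32a1*, which loads GABA and glycine into vesicles, was at 25.8, 19.6, 13.8, 22.6 and 15.04 CPM in WT5, WT15, WT16, WT41 and WT43 and at 10.05, 21.2, 33.0 and 22.1 CPM in HET5, HET6, HET7 and HET24. HET5 was the lowest and HET7 the highest, and the log2 fold change was 0.16 ± 0.29 (SE), or -0.12 without HET7. The 7 GABAergic neuron markers, none of which is a member, summed to 471, 352, 219, 428 and 243 CPM in WT and to 171, 327, 447 and 333 CPM in HET in the same order of embryos. The sums were thus lowest in the same 3 embryos, and all 7 of these markers were above 0 in every embryo. Their part in the values of *Slc32a1* and *Syt13* was not tested, and 24.9% of the exonic bases of *Slc32a1* are overlapped on the other strand by *Gm14205*.

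The transporters that load glutamate all had intervals within 1.5-fold of no change. *Slc17a6* (VGLUT2) was at 109, 90.1, 93.0, 86.8 and 98.0 CPM in WT and at 111, 101, 91.7 and 79.6 CPM in HET. The highest and the lowest value were both HET, and the log2 fold change was 0.0083 ± 0.10 (SE) with an interval of -0.21 to 0.23. *Slc17a7* (VGLUT1), the main vesicular glutamate transporter of the mature cortex, was at 44.8, 46.1, 43.6, 37.1 and 50.5 CPM in WT and at 52.7, 42.3, 44.4 and 56.8 CPM in HET, with a log2 fold change of 0.14 ± 0.11 (SE). Per kb of exon, *Slc17a7* stood at 0.411 to 0.515 of *Slc17a6* in WT and 0.418 to 0.714 in HET, with HET24 highest. *Slc17a8* (VGLUT3) was at 1.78 to 2.61 CPM in WT and 1.77 to 2.49 CPM in HET.

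The SNAREs of the synaptic fusion complex overlapped between the groups. *Snap25* was at 101, 149, 152, 136 and 135 CPM in WT5, WT15, WT16, WT41 and WT43 and at 116.5, 132.5, 153.5 and 156.2 CPM in HET5, HET6, HET7 and HET24, with WT5 the lowest of the 9. Its log2 fold change was 0.05 ± 0.12 (SE), and without WT5 it was -0.03. *Vamp2*, the main synaptic vesicle SNARE, was at 164, 173, 165, 163 and 144 CPM in WT and at 137, 164, 216 and 199 CPM in HET. HET7 and HET24 were above all WT embryos and HET5 below them, with a log2 fold change of 0.14 ± 0.12 (SE). *Vamp1*, which serves the same step mainly in hindbrain and spinal cord, was at 9.02 to 12.6 CPM in WT and 10.5 to 13.0 CPM in HET. *Stx1a*, a target-membrane syntaxin of synapses, had a log2 fold change of 0.04 ± 0.10 (SE). It was at 52.4 to 64.0 CPM in WT and 49.4 to 67.7 CPM in HET, so the groups overlapped.

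*Vamp8*, a SNARE of endosomes and of secretion outside neurons, was at 1.03, 2.28, 1.98, 1.89 and 1.10 CPM in WT and at 1.23, 1.09, 1.36 and 1.67 CPM in HET. The 3 WT embryos with the most *Ttr* were the highest of the 9 and HET24 came next, while WT5 and WT43 were at the level of the other HET embryos. Its log2 fold change was -0.31 ± 0.26 (SE), and the part of choroid plexus RNA in it was not tested. *Vamp3* and *Vamp4*, which act in recycling and in the trans-Golgi network, had log2 fold changes of -0.03 ± 0.07 and -0.02 ± 0.06 (SE). The intracellular syntaxins, which work at the Golgi, endosomes and the endoplasmic reticulum rather than at release sites, lay in a narrow band from -0.09 for *Stx12* to 0.05 for *Stx17*, with 3 above 0 and 5 below 0. *Stx12* was at 198 to 247 CPM in WT and 207 to 220 CPM in HET, and *Stx5a* at 73.9 to 80.8 and 69.0 to 80.3 CPM. HET7 was the highest embryo in none of these 8 genes. Of the exonic bases of *Stx18*, 32.3% are overlapped on the other strand.

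On the vesicle surface, *Syp*, the abundant membrane protein synaptophysin, was at 103, 116, 121, 110 and 114 CPM in WT and at 112, 120, 149 and 124 CPM in HET. HET7 and HET24 were above all WT embryos, and the log2 fold change of 0.17 ± 0.08 (SE) had an interval of -0.02 to 0.35. *Syn1*, a phosphoprotein that holds vesicles in the reserve pool, was at 61.1, 59.4, 42.6, 52.8 and 51.2 CPM in WT and at 46.2, 55.9, 73.4 and 80.1 CPM in HET, with a log2 fold change of 0.26 ± 0.16 (SE). WT16 and HET5 were the lowest embryos and HET7 and HET24 the highest. *Syn2* went to the other side of 0 at -0.08 ± 0.12 (SE). *Sv2a*, a vesicle protein that binds levetiracetam, and *Rab3a*, a small GTPase of docking, had log2 fold changes of 0.01 ± 0.09 and -0.06 ± 0.10 (SE). *Sv2c*, described after its values were seen, was at 8.95, 11.2, 10.8, 6.78 and 11.1 CPM in WT and at 13.3, 17.7, 15.5 and 5.24 CPM in HET. HET5, HET6 and HET7 were above all WT embryos and HET24 below them, and the log2 fold change was 0.41 ± 0.29 (SE). It was 0.67 without HET24 (edgeR, adjusted p = 0.684), and leaving out the lowest HET embryo raises the difference whatever its source.

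HET5 was the embryo on which counts of low p-values depended most. Without it, 10 members had an unadjusted p under 0.05 in edgeR in place of 1, among them *Rims3*, *Rims4*, *Syn1*, *Syp*, *Syt13*, *Syt7* and *Vamp2*, all with values above 0, and *Stxbp2*, below 0. In the same fit, 4.01% of all genes reached such a p upward and 3.22% downward. The adjusted p of these members was 0.307 for *Stxbp2* and 0.620 to 0.681 for the others named in edgeR's quasi-likelihood test. Without WT5 the count was 3, where 9.97% of all genes reached such a p in either direction. Without WT41 or without HET24 it was 2, beside 3.58% and 4.95% of all genes.

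Compared per kb of exon, high levels were those of *Syt11* (96.1 CPM per kb), *Stx12* (69.0), *Syt4* (55.0), *Cplx2* (45.5) and *Vamp2* (44.5), as means over the 9 embryos. The 6 active zone genes lay at 1.03 to 6.49 CPM per kb. *Stx11* was the lowest member at 0.112 CPM per kb, and *Unc13c* and *Syt12* were at 0.132 and 0.187. *Stx11*, which acts in immune cell secretion, was also the member just inside the count minimum, with 205 counts summed, and *Syt12* and *Unc13c* followed with 447 and 513. Just outside were *Syt15* with 86, *Syt10* with 79, *Vamp5* with 78 and *Stx19* with 65 counts, then *Cplx3*, *Vamp9*, *Syt8* and *Cplx4* with 23, 17, 4 and 3.

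**Figure D5:**
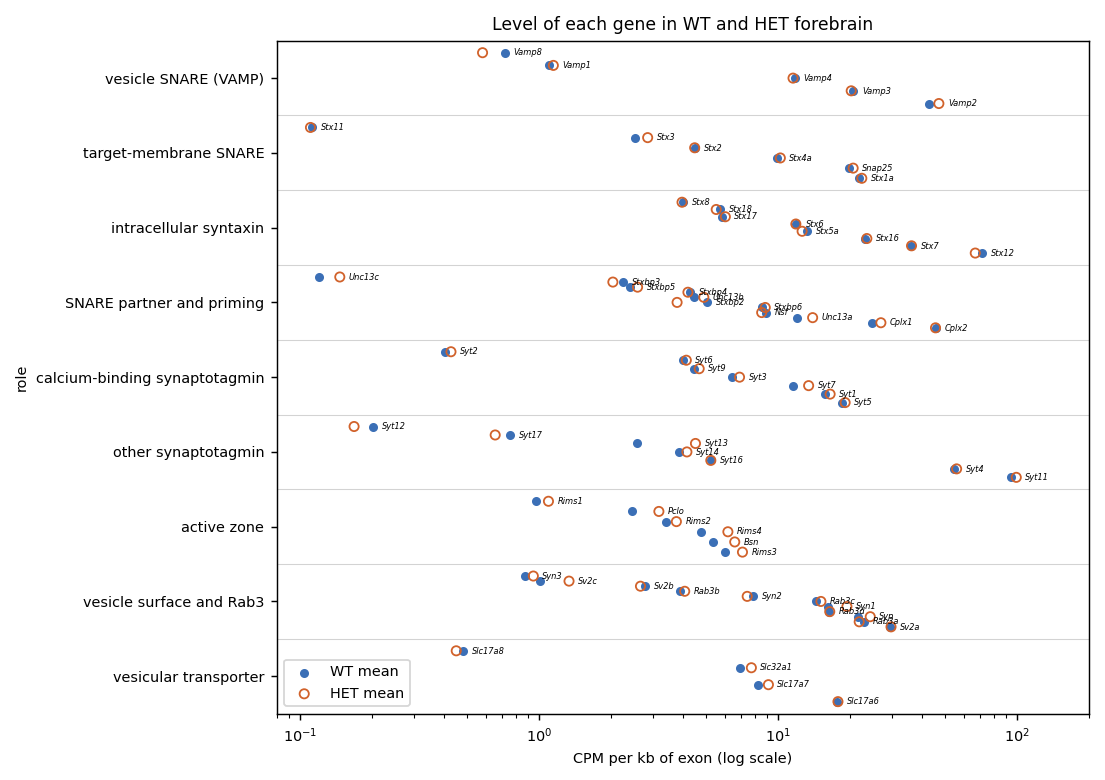
Mean level of 65 of the 67 genes in WT (filled) and HET (open) as CPM per kb of exon on a log axis, by role. Members span 0.112 to 96.1 CPM per kb, and the pair of points of most genes nearly coincide.

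Other presynaptic genes that are not members were read from a list of 49, of which 48 were tested. Of these, 36 were above 0 and 12 below 0 with a median log2 fold change of 0.09, where 48.5% of all genes were above 0. None was called by edgeR, while 2, both above 0, had an unadjusted p under 0.05, which 2.32% of all genes reached upward. The summed list was highest in HET7, at 4719 CPM beside 3682 to 4319 CPM in the other embryos, and it was not read without HET7. *Cadps2*, which primes dense-core vesicles, was at 12.8, 12.5, 12.2, 12.5 and 10.97 CPM in WT and at 16.2, 17.7, 17.2 and 13.1 CPM in HET. It was the 1 gene of the list whose groups did not overlap, where 0.786% of all genes were separated upward. Its log2 fold change was 0.40 ± 0.10 (SE), for which edgeR's quasi-likelihood test gave an adjusted p of 0.503. *Ppfia4*, a liprin of the active zone scaffold, was at 27.3, 29.6, 21.7, 25.5 and 26.7 CPM in WT and at 26.9, 30.7, 40.96 and 35.6 CPM in HET, with a log2 fold change of 0.36 ± 0.12 (SE) and an adjusted p of 0.896. HET7 and HET24 were the highest here, as in *Syp* and *Vamp2*. The scaffold genes *Erc1* and *Erc2* had log2 fold changes of 0.14 ± 0.13 and 0.11 ± 0.12 (SE), and the calcium channel genes *Cacna1a* and *Cacna1b* 0.29 ± 0.15 and 0.24 ± 0.15.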

How the data were processed

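Bulk forebrain RNA of 5 WT and 4 HET embryos was measured. Per the labels and methods, the authors captured poly(A) RNA, made TruSeq libraries, aligned 1 read of each pair to GRCm38.p6 with STAR 2.7.9a and counted reads on GENCODE M25 genes with featureCounts (Subread 2.0.0). The deposited unit is the raw count per gene, without normalization, with 1 column per embryo. Strand handling is not given in the sources used here. Exonic lengths, overlaps and gene coordinates came from GENCODE M21, which lists 55141 of the 55401 gene identifiers, and promoters from RefSeq.

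Genes were filtered with filterByExpr (minimum count 10), scaled by TMM and tested with edgeR 4.0.16 (quasi-likelihood F test, HET against WT, no covariates) in R 4.3.3, with Benjamini-Hochberg adjustment over 17818 genes. Intervals are unadjusted 95% intervals per gene, and log2 CPM used a prior count of 2. DESeq2 1.42.0 and limma 3.58.1 (voom) served as alternatives, with other scalings (RLE, upper quartile), other filters (none, or a minimum of 50), a choroid plexus score as covariate, embryos with *Ttr* under 100 CPM only, and each embryo left out. The fits were tested on simulated data with log2 changes of 1 in either direction. The members had smaller changes, from -0.41 to 0.82, and recovery of changes of such sizes was not examined. At these depths the common biological coefficient of variation was 16.8% over all genes. Each embryo is 1 sample, and the p-values set the difference between the groups against the spread between embryos.

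The members and lists were chosen with earlier results of these data known. Genes named with alternatives are a core set of 23 release genes plus the 5 members above 0 and the 5 below 0 with the lowest p, which with repeats gives 30. Others are named to describe their role, after their values were seen. Values of 2 members are not reported here, and the figures leave them out, while counts and medians include them.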

Additional observations from a re-analysis of the deposited data

Results flagged for a closer look

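In 62 groups of values examined, 1 had a sample far from the others, where chance alone gives about 3.1. *Pclo* was at 28.2 CPM in WT16, while the other 4 WT embryos were at 55.3 to 65.5 CPM, a gap of 0.728 of the range of the WT group. The level in WT16 was also low for *Bsn*, which was not far enough from the rest of the group to be singled out by this measure. It was low for *Syn3* too, which was not among the genes examined in this way.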

How the results depend on the processing

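No member was called higher under any of the alternatives, and DESeq2 called 1 lower (*Stxbp2*, log2 fold change -0.41, adjusted p 0.0063). Over all genes, 5 were called higher and 20 lower by edgeR, 21 and 64 by DESeq2, 2 higher with the choroid plexus covariate, and 3 higher and 12 lower in embryos with *Ttr* under 100 CPM. Leaving out each embryo gave 0 to 5 higher and 13 to 20 lower, and leaving out WT16 and HET7 together, an alternative chosen after seeing the data, gave 0 higher. Members with an unadjusted p under 0.05 numbered 1 by edgeR and 1 to 10 with an embryo left out, with the shares of all genes given above where the count moved. They numbered 4 without a filter, 2 with the covariate, 2 in embryos with low *Ttr*, and 2 without WT16 and HET7. For these last fits the share of all genes was not computed, so whether the counts exceed it is not known. The median over the members was 0.0063 to 0.11 with each embryo left out and -0.0052 without WT16 and HET7.

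For the named genes, 496 of 539 values kept their direction and side of the threshold, 1 passed it and 42 changed sign. With each embryo left out, log2 fold changes ranged from -0.11 to 0.22 for *Syt1*, -0.034 to 0.13 for *Snap25*, -0.0083 to 0.11 for *Vamp1*, -0.026 to 0.12 for *Stx1a*, -0.012 to 0.29 for *Rims1*, -0.076 to 0.044 for *Cplx2*, -0.17 to 0.0050 for *Syn2*, -0.080 to 0.061 for *Sv2a*, -0.14 to 0.0079 for *Rab3a*, -0.070 to 0.088 for *Slc17a6* and -0.12 to 0.39 for *Slc32a1*. Without WT16 and HET7 the sign changed for *Syt1* (-0.18), *Stx1a* (-0.011), *Stxbp5* (-0.0011), *Rims1* (-0.14), *Sv2a* (-0.075) and *Slc32a1* (-0.22). In embryos with low *Ttr* it changed for *Unc13a* (-0.034), *Bsn* (-0.0094), *Cplx2* (0.045), *Slc17a6* (-0.030), *Slc17a7* (-0.035), *Syt12* (0.024) and *Stx12* (0.014). *Cplx2* was also above 0 by DESeq2 (0.0026), RLE scaling (0.0053), the stricter filter (0.0046) and the covariate (0.030), and *Slc17a6* below 0 with the covariate (-0.090). The cause was not tested. No paired analysis was possible, because the labels do not give the litter of each embryo. The groups share 1 embryo number, 5, which does not tie the embryos together. Any likeness between embryos of the same litter was therefore not accounted for.

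With 4 and 5 embryos, 16 members had intervals reaching beyond 1.5-fold, so the values leave room for a difference of that size in them.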
